A study of Mus musculus with 11 samples.

Results

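Of 24000 SMC1 peaks called in wild-type mouse embryonic fibroblasts, 5227 (21.8%, 95% Wilson interval 21.3 to 22.3%) had an SMC1 peak in SA1-null fibroblasts and no peak of SA1 or SA2. These 5227 positions are described here as kept positions without an SA peak. They were chosen from the deposited interval lists as wild-type SMC1 peaks that overlapped an SA1-null SMC1 peak by at least 1 bp. None of them overlapped a wild-type SA1, a wild-type SA2 or an SA1-null SA2 peak. Membership therefore rests on 5 lists, and what those lists say about the positions is a description. The SMC3 lists of both genotypes took no part in the choice.

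Chromatin immunoprecipitation and sequencing (ChIP-seq) was done on primary fibroblasts from E12.5 embryos of a C57BL/6 x 129 Sv background. The groups used here were untreated wild-type cells with antibodies against SA1, SA2, SMC1 and SMC3, and untreated SA1-null cells with the same 4 antibodies. Input DNA pooled over both genotypes was sequenced for 2 samples. Each group was 1 sample and 1 list, except SMC1 in SA1-null cells, for which 2 samples share 1 list. The allele behind the SA1-null genotype, the number of embryos and their sex are not stated in the labels.

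Cohesin encircles DNA; it ties sister chromatids to each other until they separate and takes part in folding chromatin into loops. SMC1 and SMC3 pair to form most of the ring, a kleisin subunit closes it, and an SA protein (SA1 or SA2, the products of the Stag1 and Stag2 genes) binds the kleisin. In mammalian somatic cells the chromatin-bound ring is thought to carry 1 SA protein, and much of it sits where the DNA-binding protein CTCF is bound. A position where a ring subunit is called and neither SA protein is called is for that reason of interest. It does not show a ring without SA, because a list holds only what passed the caller's threshold.

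The lists bound what can be said. They held 26602 (SA1), 7741 (SA2), 24000 (SMC1) and 15564 (SMC3) peaks in wild-type cells. In SA1-null cells they held 177, 6352, 47003 and 34802 peaks in that order. The SA1 antibody thus gave 177 peaks in cells labelled as lacking SA1. No list gives a height or a score, and sequencing depth is unknown. The SMC1 and SMC3 lists were called against the same input DNA, whereas the 3 SA lists used here were called against the other input. Intervals below are over peaks and cover counting only. With 1 list per group no spread between replicates could be measured, so no test between genotypes was made.

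The other wild-type SMC1 peaks give the scale for the kept positions without an SA peak. A further 17180 peaks (71.6%) were kept and had a peak in any of the 3 SA lists, and are called SA-bearing below. Another 1241 (5.17%) had no SA peak and were called in wild-type cells alone. The remaining 352 (1.47%) had an SA peak and were called in wild-type cells alone. Among the 6468 SMC1 peaks without an SA peak, 80.8% (interval 79.8 to 81.8%) were kept, against 93.4% of all SMC1 peaks. Both shares are fixed by the rule and support nothing.

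SMC3, the partner of SMC1 in the ring, was called at a minority of the kept positions without an SA peak in wild-type cells and at most of them in SA1-null cells. The wild-type SMC3 list had a peak at 1564 of the 5227 positions (29.9%, interval 28.7 to 31.2%), against 60.7% of all wild-type SMC1 peaks. The SA1-null SMC3 list had a peak at 4442 (85.0%, interval 84.0 to 85.9%), against 90.2% of all. In both lists the kept positions without an SA peak thus stood below the whole SMC1 list. The SA1-null SMC3 list is the longer by far. When it was shortened by width to the 15564 peaks of the wild-type list, 40.4% of the positions had an SA1-null SMC3 peak (interval 39.1 to 41.8%). The gap between 29.9% and 85.0% was thus smaller with the shortened list. No share over all SMC1 peaks was computed with the shortened list. Against SA-bearing peaks the positions then differed by -15.7 points in SA1-null SMC3 (95% Newcombe interval -17.2 to -14.2). Shortening keeps the widest peaks and matches neither depth nor threshold. How much of the gap follows from list length was not tested, and the 2 shares do not compare amounts of SMC3.

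The positions fell into 4 states by SMC3. SMC3 was called in both genotypes at 1505 positions (28.8%, interval 27.6 to 30.0%), against 60.0% of all SMC1 peaks. It was called in SA1-null cells alone at 2937 (56.2%, interval 54.8 to 57.5%), against 30.3% of all. It was called in neither genotype at 726 (13.9%, interval 13.0 to 14.9%), against 9.04% of all. In wild-type cells alone it was called at 59 positions (1.13%, interval 0.876 to 1.45%), against 0.721% of all. Of the 1564 positions with wild-type SMC3, 1505 also had SMC3 in SA1-null cells. With the full lists the most frequent state was SMC3 in SA1-null cells alone, but this order turned when the SA1-null SMC3 list was cut to its widest peaks. With the SA1-null SMC3 list shortened to wild-type length, the most frequent state was SMC3 in neither (44.3%). It was ahead of SA1-null alone (25.7%), wild-type alone (15.2%) and both (14.7%). These 4 shares were counted at the kept positions without an SA peak only. Whether the turned order is particular to them was not tested.

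**Figure D1:**
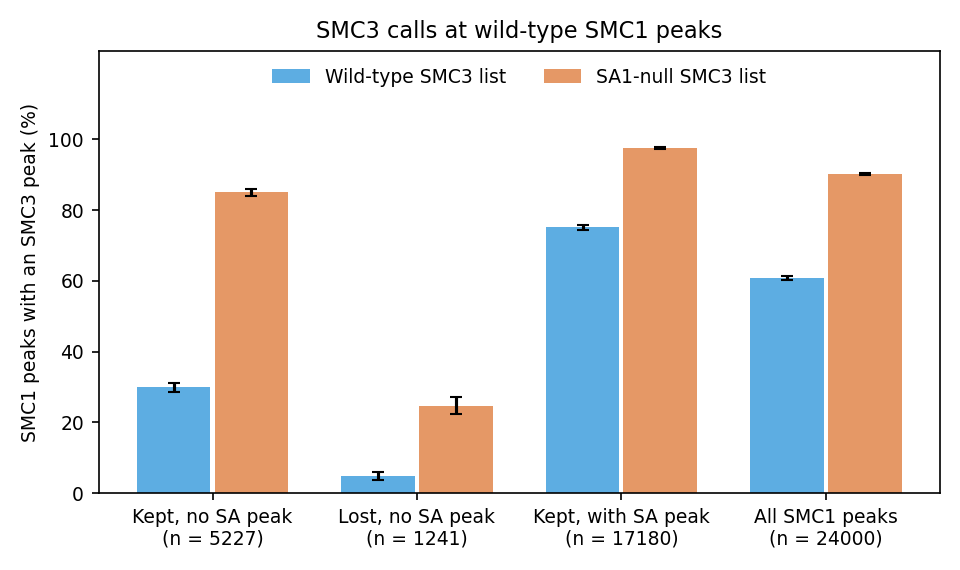
Share of wild-type SMC1 peaks (y axis, percent) with an overlapping SMC3 peak in the wild-type list (blue bars) or the SA1-null list (orange bars), for kept peaks without an SA peak, peaks without an SA peak called in wild-type cells alone (lost), kept peaks with an SA peak, and all. Error bars are 95% Wilson intervals over peaks; the kept peaks without an SA peak (29.9% and 85.0%) lie between the lost peaks (4.75% and 24.7%) and the kept peaks with an SA peak (75.1% and 97.6%).

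In SMC3 calls, the kept positions without an SA peak lay between the 2 neighbouring classes. SMC1 peaks without an SA peak that were called in wild-type cells alone had wild-type SMC3 at 4.75% (59 of 1241). The kept positions without an SA peak were 25.2 percentage points higher (95% Newcombe interval 23.4 to 26.8). In the SA1-null SMC3 list the difference was 60.3 points (interval 57.7 to 62.8), from 24.7% to 85.0%. Kept SMC1 peaks with an SA peak had wild-type SMC3 at 75.1% and SA1-null SMC3 at 97.6%. The kept positions without an SA peak were lower than these, with differences of -45.2 points in the wild-type list (interval -46.5 to -43.8) and -12.6 points in the SA1-null list (interval -13.6 to -11.6). Each of these 4 differences had the same direction on all 20 chromosomes examined. Those from the peaks called in wild-type cells alone became smaller when an SA1-null list was cut to its widest peaks. With the SA1-null SMC1 list shortened to wild-type length they were 13.3 points (wild-type SMC3) and 31.3 points (SA1-null SMC3). With the SA1-null SMC3 list shortened instead, the second was 33.2 points. The comparison with the class called in wild-type cells alone splits peaks by the SA1-null SMC1 list. An SA1-null SMC3 call is not independent of the culture behind that list, if the libraries came from the same cells, which the labels do not say.

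Ordered by the width of the wild-type SMC1 peak, the only size the lists give, the kept positions without an SA peak had higher SMC3 shares in wider classes, up to a plateau in the wild-type list. In 5 width classes set by the quintiles of the whole SMC1 list, wild-type SMC3 was present at 21.2% of the positions 189 to 461 bp wide. The share was 27.6% at 462 to 544 bp, 34.2% at 545 to 614 bp, 37.6% at 615 to 694 bp and 36.8% above that (interval 33.5 to 40.3%). At kept peaks with an SA peak it went from 47.4% in the narrowest class to 91.6% in the widest (interval 90.7 to 92.4%). Width was thus followed by a smaller gain in wild-type SMC3 calls where no SA peak was called. In the SA1-null SMC3 list the kept positions without an SA peak went from 78.2% to 90.8%, and kept peaks with an SA peak from 91.6% to 99.7%, close to the upper limit. In percentage points the smaller gain was thus seen in the wild-type list alone. The SA1-null list cannot decide this, because SA-bearing peaks that start at 91.6% have little room to gain. Averaged over the 5 classes with equal weight, the kept positions without an SA peak differed from the kept peaks with an SA peak by -41.3 points in the wild-type list. The order of the 3 classes of SMC1 peaks was the same in each of the 5 width classes and in both lists.

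**Figure D2:**
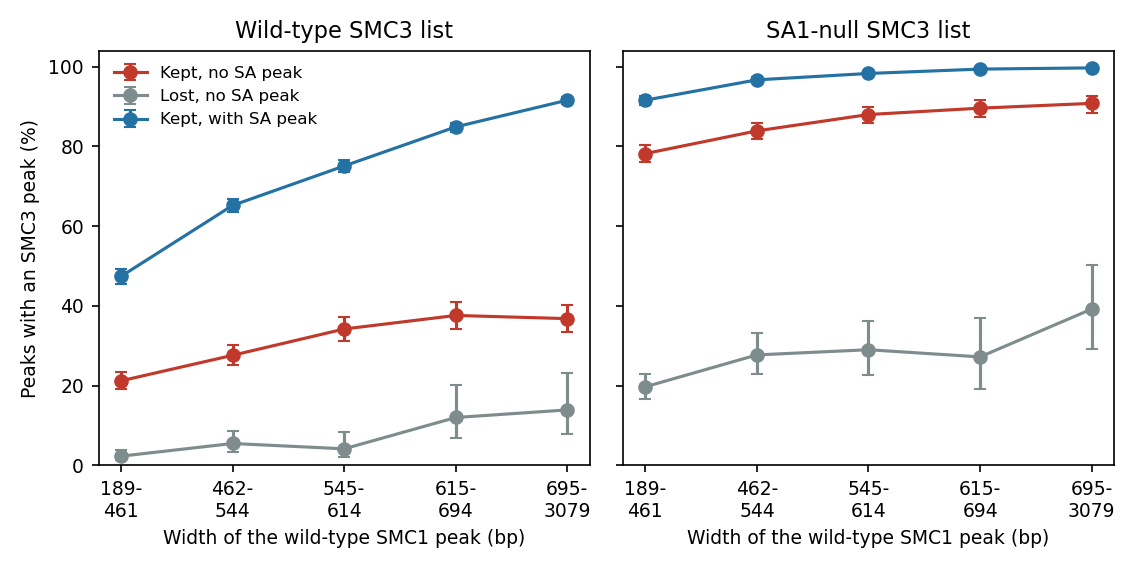
Share of SMC1 peaks with an SMC3 peak (y axis, percent) in 5 classes of wild-type SMC1 peak width (x axis, bp), for the wild-type SMC3 list (left) and the SA1-null SMC3 list (right); points are shares and bars 95% Wilson intervals. Kept peaks without an SA peak level off at 37.6% and 36.8% in the wild-type list, whereas kept peaks with an SA peak reach 91.6%.

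The kept positions without an SA peak were narrower than SA-bearing ones in the median but included at least as large a share of broad peaks. The median width of their wild-type SMC1 peak was 541 bp (quartiles 450 and 636 bp, full range 225 to 3079 bp). It was 600 bp for kept peaks with an SA peak and 465 bp for peaks without an SA peak called in wild-type cells alone. The 95% distribution-free intervals of these medians, 537 to 546, 597 to 603 and 455 to 471 bp, did not overlap. The share of kept positions without an SA peak was 30.2% in the narrowest width class of SMC1 peaks and 16.1% in the widest. At the upper end the order of the medians turned: the 95th percentile was 879 bp without and 836 bp with an SA peak. A width above 1000 bp, a limit chosen after the widths were seen, was reached by 133 kept positions without an SA peak (2.54%, interval 2.15 to 3.01%). It was reached by 361 kept peaks with an SA peak (2.10%, interval 1.90 to 2.33%) and by 4 of the 1241 called in wild-type cells alone. Of the 133 broad positions, 63 (47.4%) had wild-type SMC3 and 129 (97.0%) had SA1-null SMC3. Among the 361 broad kept peaks with an SA peak, 82.3% had wild-type SMC3.

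**Figure D3:**
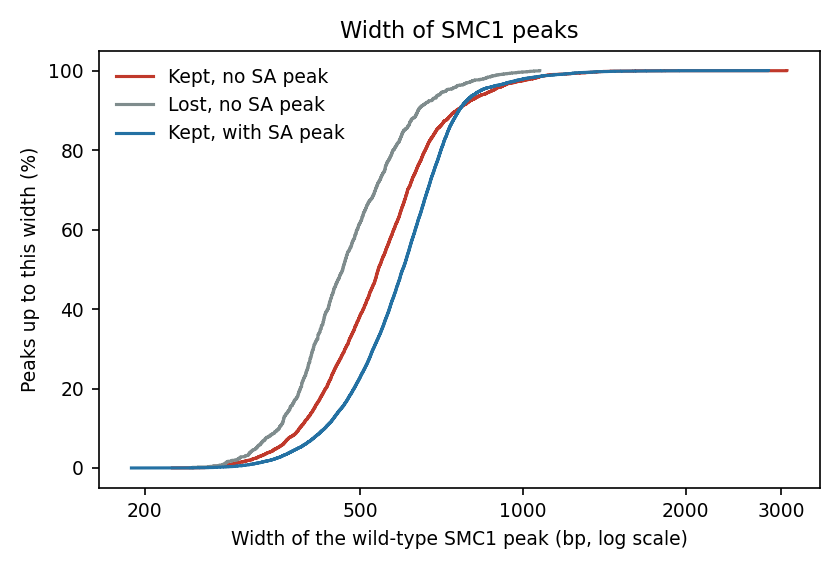
Cumulative share of wild-type SMC1 peaks (y axis, percent) up to a given width (x axis, bp, log scale) for kept peaks without an SA peak (red), peaks without an SA peak called in wild-type cells alone (grey) and kept peaks with an SA peak (blue). The red curve has its median at 541 bp, between 465 and 600 bp, and crosses the blue one near the upper end, where the 95th percentiles are 879 and 836 bp.

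In SA1-null cells the SMC1 peak at these positions was more often broad than at SA-bearing ones. The SA1-null SMC1 peak had a median width of 573 bp (quartiles 466 and 730 bp), against 595 bp at kept peaks with an SA peak. It was wider than 1000 bp at 517 positions (9.89%), against 4.93% at kept peaks with an SA peak. Divided by the wild-type width, the SA1-null SMC1 width had a median of 1.07 (95% interval 1.06 to 1.08) without and 1.0 (interval 0.999 to 1.01) with an SA peak. It was 2 or more at 268 positions (5.13%) and at 1.48% of the kept peaks with an SA peak. These widths come from lists that chose the positions and are given with no test.

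SMC3 widths, which the choice did not use, were ordered alike in the SA1-null list, narrower in the median but more often broad. The median SA1-null SMC3 peak was 664 bp wide at the kept positions and 697 bp at kept peaks with an SA peak. In the wild-type SMC3 list the medians were 514 and 576 bp. An SA1-null SMC3 peak wider than 1000 bp lay at 572 of the 4442 positions that had one (12.9%, interval 11.9 to 13.9%). At kept peaks with an SA peak the share was 6.68%, a difference of 6.20 points (95% Newcombe interval 5.17 to 7.28). In the wild-type SMC3 list the shares were 1.21% and 0.837%, and the interval of their difference included 0 (0.378 points, interval -0.0910 to 1.07). Because the wild-type list gave 1564 such SMC3 peaks, of which 19 were broad, a smaller difference in wild-type cells may have gone undetected. Peaks without an SA peak called in wild-type cells alone had a broad SA1-null SMC3 peak at 27 of 306 (8.82%). The interval of this share overlapped that of the kept positions. SA1-null SMC3 width was 2 or more times the wild-type SMC1 width at 8.50% of these 306. The share was 7.34% at the 4442 kept positions and 2.58% at kept peaks with an SA peak. Broad SA1-null SMC3 peaks were thus not particular to the kept positions.

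Nearly all kept positions matched 1 SA1-null SMC1 peak each. A single partner was found at 5154 positions, 2 partners at 72 and 3 at 1. In the other direction, 5270 SA1-null SMC1 peaks lay at the positions, and 73 of these spanned 2 or more wild-type SMC1 peaks. Centres coincided closely: the nearest SA1-null SMC1 centre was 54.5 bp away in the median (quartiles 25 and 102 bp). The wild-type SMC3 centre was 47.8 bp away and the SA1-null SMC3 centre 55.5 bp. At kept peaks with an SA peak the 3 medians were 43.5, 40.0 and 41.0 bp. Each SMC3 offset is over the peaks that had such an SMC3 peak. Of the 1564 positions with wild-type SMC3, 81.8% had an offset of at most 100 bp from it (interval 79.8 to 83.6%), against 89.1% of the 12900 SA-bearing peaks that had one (interval 88.6 to 89.6%). The calls of the ring subunits thus fell close together in both classes, somewhat less tightly without an SA peak.

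Members of the 4 SMC3 states differed in SMC1 width. The 1505 positions with SMC3 in both genotypes had a median wild-type SMC1 width of 576 bp (95% interval 568 to 585). The 2937 with SMC3 in SA1-null cells alone had 536 bp (interval 531 to 541), and the 726 with SMC3 in neither had 494 bp (interval 480 to 509). The SA1-null SMC1 peaks were 588, 582 and 496 bp wide in the same order. The positions with SMC3 in SA1-null cells alone thus resembled the fully called ones in their SA1-null SMC1 width more than in their wild-type width. The 59 positions with SMC3 in wild-type cells alone had SMC1 peaks with median widths of 514 bp (wild type) and 480 bp (SA1-null).

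Most kept positions without an SA peak lay more than 10 kb from any SA peak. For scale, their nearest other wild-type SMC1 peak of any kind was 16278 bp off in the median. The nearest SA peak of the 3 lists was 18278 bp off in the median, edge to edge (95% interval 17467 to 19057, quartiles 6068 and 40854 bp). It was a wild-type SA1 peak for 80.6% of the positions. An SA peak lay within 1 kb of 407 positions (7.79%, interval 7.09 to 8.54%), within 10 kb of 34.4% and within 100 kb of 4965 positions. For peaks without an SA peak called in wild-type cells alone, the shares within 1 and 10 kb were 6.61% and 31.0%, and the median distance was 22349 bp (interval 20708 to 25122). The kept positions were somewhat nearer to SA peaks, by values that the SA lists of the rule also fix.

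**Figure D4:**
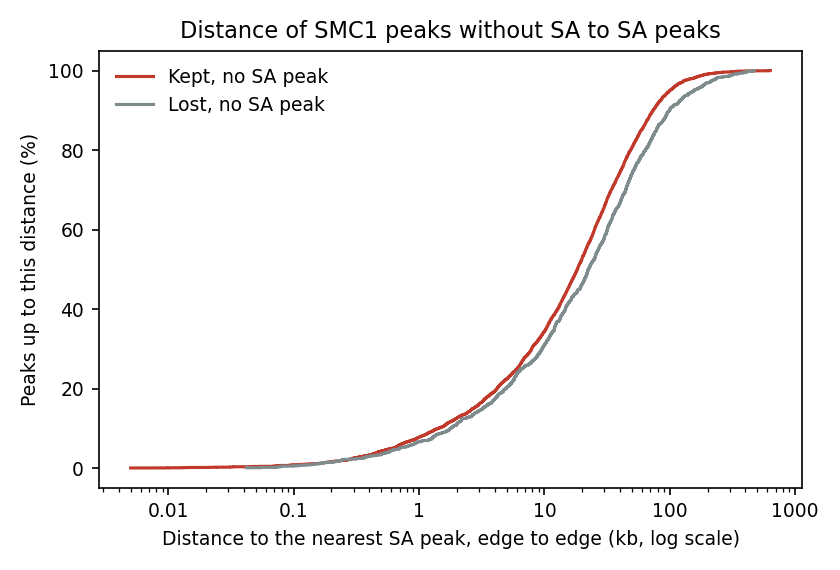
Cumulative share of wild-type SMC1 peaks without an SA peak (y axis, percent) up to a given distance from the nearest SA peak (x axis, kb, log scale) for kept peaks (red) and peaks called in wild-type cells alone (grey). Both curves lie mostly between 1 and 100 kb; 7.79% of kept and 6.61% of lost peaks are within 1 kb of an SA peak.

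Positions near the overlap threshold were few. An SA peak lay within 100 bp of 43 kept positions without an SA peak, of which 15 had wild-type SMC3 and 39 had SA1-null SMC3. On the other side of the threshold, 25 kept peaks overlapped an SA peak by at most 100 bp, of which 10 had wild-type SMC3 and 23 had SA1-null SMC3. The wild-type SMC3 shares on the 2 sides were 34.9% (interval 22.4 to 49.8%) and 40.0% (interval 23.4 to 59.3%), so no difference between the classes was resolved at the threshold. The overlapping SA1-null SMC1 peak itself reached an SA peak at 67 of the 5227 positions (1.28%). The SA1-null SMC3 peak did so at 87 of 4442 (1.96%), and the wild-type SMC3 peak at 6 of 1564.

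SA1-null SMC3 was called less often at positions far from SA than at those close to it, by a few percentage points, and no such difference was resolved for wild-type SMC3. Wild-type SMC3 was present at 28.3% of the 407 positions within 1 kb of an SA peak (interval 24.1 to 32.8%). The share was 29.5% between 1 and 10 kb, 30.0% between 10 and 100 kb, and 33.6% of the 262 positions beyond 100 kb (interval 28.1 to 39.5%). In the SA1-null SMC3 list the shares were 87.5%, 85.8%, 84.7% and 80.9% in the same order, with intervals of 83.9 to 90.3% for the nearest and 75.7 to 85.2% for the farthest. The nearest minus the farthest positions gave 6.55 points in the SA1-null list (95% Newcombe interval 0.965 to 12.49) and -5.33 points in the wild-type list (interval -12.6 to 1.77). Median SMC1 widths were 548, 534, 542 and 556 bp. In each of the 4 distance classes both shares were below those of kept peaks with an SA peak (75.1% and 97.6%). The fall with distance was not particular to the kept positions. Peaks without an SA peak called in wild-type cells alone had SA1-null SMC3 at 34.1% within 1 kb and 18.0% beyond 100 kb. The SA lists that set the distances also took part in choosing the positions.

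Kept positions without an SA peak were spread over the genome. They made up between 19.5% and 24.7% of the SMC1 peaks on the 19 autosomes (mean 21.8%, SD 1.74 over autosomes). On chromosome X the share was 12.2% (59 of 485, interval 9.55 to 15.4%), below every autosome. Peaks without an SA peak made up 17.1% of SMC1 peaks on X (interval 14.0 to 20.7%) and 27.2% on autosomes. Of these, 71.1% were kept on X (interval 60.6 to 79.7%) and 80.9% on autosomes (interval 80.0 to 81.9%). Of the 59 positions on X, 23 had wild-type SMC3 (39.0%, interval 27.6 to 51.7%) and 47 had SA1-null SMC3 (79.7%, interval 67.7 to 88.0%). On single autosomes these shares ran from 24.2% to 34.1% and from 82.2% to 87.6%. The interval for wild-type SMC3 on X included most of the autosome range.

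**Figure D5:**
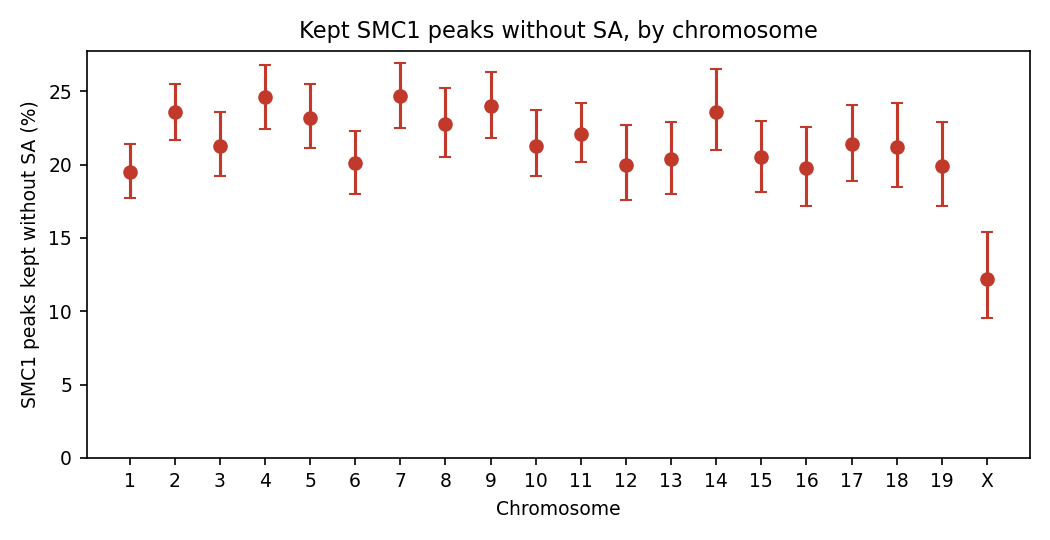
Share of wild-type SMC1 peaks that were kept without an SA peak (y axis, percent) on each chromosome (x axis); points are shares and bars 95% Wilson intervals over peaks. The 19 autosomes lie between 19.5% and 24.7% and chromosome X at 12.2%.

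Some of the positions had a close neighbour of the same kind. Another kept position without an SA peak lay within 10 kb of 741 of the 5227 (14.2%, interval 13.3 to 15.1%), and within 1 kb of 195 (3.73%). A kept peak with an SA peak had such a position within 10 kb in 8.70% of cases (interval 8.28 to 9.13%). For peaks without an SA peak called in wild-type cells alone it was 11.8% (interval 10.1 to 13.7%), which overlapped the interval of the positions. SA-bearing peaks also had their own kind nearby more often: one lay within 10 kb of 29.3% of them and of 25.3% of the positions. Any other wild-type SMC1 peak lay within 10 kb of 37.5% of the positions and of 36.3% of the kept peaks with an SA peak. Within 1 kb the shares were 9.76% (interval 8.98 to 10.6%) and 7.08% (interval 6.71 to 7.48%). The median distance to the nearest other SMC1 peak was 16278 bp (interval 15590 to 17102) for the positions and 17710 bp (interval 17232 to 18222) for the SA-bearing peaks. SMC1 peaks of any kind were thus somewhat nearer to the positions too, with the smaller contrast at 10 kb. Wild-type SMC3 was present at 30.9% of the 741 positions with such a neighbour and at 29.8% of the others, with overlapping intervals.

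The positions were also counted in windows of 1 Mb. As they are part of the wild-type SMC1 list, windows with more SMC1 peaks can hold more of them by construction. Of 2182 windows with a wild-type SMC1 peak, 1548 (70.9%) held at least 1 position, and the median was 2. The 12 windows without a wild-type SA1 peak held 8 positions among 18 SMC1 peaks. In windows with 1 to 5 wild-type SA1 peaks, 19.2% of the SMC1 peaks were kept positions without an SA peak. The share was 19.4% with 6 to 10 SA1 peaks, 22.3% with 11 to 20 and 22.5% with 21 or more (interval 21.5 to 23.6%). Among the windows with at least 1 SA1 peak, the share thus differed by few percentage points between windows poor and rich in SA1. The windows without one hold too few SMC1 peaks to be ranked (44.4%, interval 24.6 to 66.3%), and the SA1 list that orders the windows also took part in choosing the positions. The 3 windows with most positions lay on chromosome 2 (167000001 to 168000000), chromosome 14 (26000001 to 27000000) and again chromosome 2 (27000001 to 28000000), in mm9 coordinates. They held 19, 18 and 16 positions among 46, 31 and 37 SMC1 peaks. The window on chromosome 14 had 58.1% of its SMC1 peaks in this class, with wild-type SMC3 at 2 and SA1-null SMC3 at 13 of the 18.

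Single positions show the range. Those with SMC3 in both genotypes came in order of wild-type SMC1 and SMC3 width (mean of both percentiles), and those of the other states by wild-type SMC1 width. The first position with SMC3 in both genotypes was on chromosome 3 from 145310575 to 145313653, with wild-type and SA1-null SMC1 peaks of 3079 and 3196 bp. Its SMC3 peaks were 2853 and 5482 bp wide, and a wild-type SA1 peak lay 431 bp away. The second was on chromosome 11 from 86394550 to 86395918, with SMC1 peaks of 1369 and 3901 bp and SMC3 peaks of 2999 and 5874 bp in wild-type and SA1-null cells. At both, the SA1-null peaks were the wider ones. The third, on chromosome 2 from 13343318 to 13344769, went the other way, with SMC1 peaks of 1452 and 988 bp and SMC3 peaks of 1133 and 662 bp. The fourth was at 88956130 to 88957507 of chromosome 4 and the fifth at 164023490 to 164024864 of chromosome 1. Their SMC1 peaks were 1378 and 1375 bp wide in wild-type cells.

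Among the 133 positions above 1000 bp, 66 (49.6%) had SMC3 in SA1-null cells alone, 4 (3.01%) in neither genotype and 0 in wild-type cells alone. The 361 SA-bearing peaks of such width gave 63 (17.5%), 1 (0.277%) and 0 in the same order. Where SMC3 was called only in SA1-null cells, the 3 widest positions without an SA peak lay on chromosomes 4 and 14. They were at 6917027 to 6918700 of chromosome 4 and, on chromosome 14, at 46791412 to 46793031 and 47004944 to 47006548. The last had an SA1-null SMC3 peak of 4488 bp and no wild-type SMC3 peak, and lay 1663 bp from an SA1 peak. Where SMC3 was called only in wild-type cells, the 3 widest lay on chromosome 2 (148059233 to 148060152), chromosome 16 (25385359 to 25386073) and again chromosome 2 (17925837 to 17926545). In these 3 the SA1-null SMC1 peak was the narrower one, at 602, 328 and 573 bp against 920, 715 and 709 bp.

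Among the positions with no SMC3 in either genotype, the widest was on chromosome 2 from 98506302 to 98507797. A control list (input, or SA1 antibody in SA1-null cells) had an interval there, that is, signal without the antibody target. The next lay on chromosome 1 (81912867 to 81913989) and chromosome 6 (34470397 to 34471466), and neither had such an interval. The positions farthest from any SA peak were those at 138501030 to 138501891 of chromosome 2, 50299431 to 50299875 of chromosome 4 and 145275704 to 145276285 of chromosome 7. They lay 634, 597 and 481 kb from the nearest SA peak. The first of them had SMC1 peaks of 862 and 950 bp, no wild-type SMC3 peak and an SA1-null SMC3 peak of 1384 bp.

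Control lists covered almost none of the positions. Of the 5227, 4 overlapped an interval of each input list, 2 overlapped a peak of the SA1-null SA1 list, and 5 (0.0957%, interval 0.0409 to 0.224%) overlapped any of the 3. The shares were 0.322% for peaks without an SA peak called in wild-type cells alone and 0.0757% for kept peaks with an SA peak. The 3 control lists hold 1030 intervals in all and could not have covered more than a part of the positions. Genes and sequences at the positions were not analysed here.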

How the data were processed

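The authors deposited 10 interval lists, each with a chromosome, a start and an end per peak and no score. Per the submitters' processing notes, coordinates are mm9 and CASAVA 1.7 was run; the sources used here name no aligner or peak caller. Each deposited name states the input used, no minimum fold and a false discovery rate of 10, taken here as percent. Printed starts are 1-based, the files' being taken as 0-based.

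Overlap meant at least 1 shared bp. Shares have 95% Wilson intervals, differences of shares Newcombe intervals, and medians intervals from order statistics. Distances run from edge to edge. Python 3.11.15, numpy 2.4.6, scipy 1.17.1 and matplotlib 3.10.9 were used. Overlap counting was tested on simulated data and gave the same numbers as bedtools 2.31.1 in each of 100 comparisons of 2 lists. Positions were named by peak width within each SMC3 state, by distance from SA peaks and by number per 1 Mb window. The class of positions, the named-position rule and the settings were chosen with earlier results of these data known. Gene and sequence context had been planned, for a genome or annotation of mm9; tables of another build were not used.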

Additional observations from a re-analysis of the deposited data

How the results depend on the processing

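No paired analysis was possible because each group has 1 list and the 2 SA1-null SMC1 samples share 1. For the same reason no replicate could be left out. Of 100 values recomputed under other settings, 69 stayed within their interval, or within 1.5 times for the number of positions, and 31 moved. Direction was checked only for the differences between classes, and 0 of those changed it. The order of the SMC3 states, which turned with the shortened SA1-null SMC3 list, is not among the 100 values. With the widest 50% of wild-type SMC1 peaks, 2070 positions (17.2%) remained in the class. Wild-type SMC3 was then present at 36.7%, SA1-null SMC3 at 89.6%, both at 35.7% and neither at 9.52%. The differences were 26.8 points from peaks called in wild-type cells alone in the wild-type list and -49.4 and -9.82 points from SA-bearing peaks in the wild-type and SA1-null lists. With the SA1-null SMC1 list shortened to wild-type length by width, 3141 positions (13.1%) were left. The SMC3 shares were 31.9%, 89.5%, 31.3% and 9.84% in the same order. The differences from peaks called in wild-type cells alone were 13.3 and 31.3 points, and those from SA-bearing peaks -50.2 and -9.59 points. With the SA1-null SMC3 list shortened, a setting chosen after seeing the data, SA1-null SMC3 was at 40.4%, both at 14.7% and neither at 44.3%, and the differences were 33.2 and -15.7 points. Equal weight of the 5 width classes gave -41.3 points in the wild-type list, and 57.5 and -11.0 points in the SA1-null list. Requiring no SA peak within 1000 bp gave a share of 20.1%, and within 10000 bp 3430 positions (14.3%). Merging peaks closer than 1000 bp gave 21.0%. All these settings but the weighting leave fewer peaks by construction; beyond that the cause was not tested. Removing control intervals or chromosome X, an overlap of 50% of the shorter peak, leaving the SA1-null SA2 list unused and centre-to-centre distances moved no value beyond its interval. Unknown depth limits every absence of a peak.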
